A study of Caenorhabditis elegans with 2 samples.

Results

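The genes described here encode 9 basic leucine zipper (bZIP) transcription factors of Caenorhabditis elegans, namely jun-1, fos-1, cebp-1, cebp-2, zip-2, atf-7, atfs-1, skn-1 and xbp-1. They were chosen from the bZIP family with the signal and rank of peaks at several of them already known, so their counts and ranks below are descriptions and no test was made on them. They are 9 of 19973 protein coding genes on the nuclear chromosomes, and 20 other bZIP genes were looked up beside them. The data are chromatin immunoprecipitation followed by sequencing (ChIP-seq) from whole L3 larvae, with males and females pooled, of strain OP353. This strain carries the mutation unc-119(tm4063) on chromosome III and the transgene wgIs353, through which NHR-77, a nuclear hormone receptor, is tagged with eGFP, and the labels name nhr-77 as the antibody. Both samples, biological replicates 1 and 2, share this genotype and stage. They form 1 group with no second condition, so the comparisons are between places and peak lists. The signal comes from whole animals and is not resolved by cell type, and the animals carry the tagged copy as a transgene.

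In a bZIP protein a basic region contacts DNA and the adjoining leucine zipper pairs it with a partner, so that the factors act as homodimers or heterodimers. SKN-1 is usually counted with the family although it lacks the zipper and binds DNA as a monomer. In worms, many of these factors are known for stress and infection responses. ATFS-1 drives the mitochondrial unfolded protein response, XBP-1 that of the endoplasmic reticulum, and SKN-1 the response to oxidants. ZIP-2 and ATF-7 act in the response to pathogens, CEBP-1 in axon regeneration, and JUN-1 and FOS-1 are the worm Jun and Fos proteins. What was measured here is the ChIP signal of tagged NHR-77 at the genes that encode these factors, not the binding of the bZIP proteins themselves.

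The sequences shown lie under the 4 summits in the authors' thresholded list, described below, and under 1 weaker summit of atf-7. Each is 121 bases of WBcel235 (ce11) from RefSeq, centred on the pooled summit, and is printed 5′ to 3′ on the strand of the gene. Capitals mark exact matches, on either strand, to 1 of 7 searched motifs.
jun-1, chrII:9112980-9113100, plus strand: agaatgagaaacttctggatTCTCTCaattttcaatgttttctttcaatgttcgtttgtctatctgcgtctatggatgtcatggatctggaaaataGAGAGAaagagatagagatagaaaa
atfs-1, chrV:14193523-14193643, plus strand: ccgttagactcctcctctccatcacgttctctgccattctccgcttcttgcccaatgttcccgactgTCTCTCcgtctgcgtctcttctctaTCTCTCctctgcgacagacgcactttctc
cebp-1, chrX:1454525-1454645, minus strand: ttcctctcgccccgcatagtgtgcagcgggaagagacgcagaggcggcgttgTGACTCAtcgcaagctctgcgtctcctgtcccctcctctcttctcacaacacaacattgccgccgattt
zip-2, chrIII:833814-833934, plus strand: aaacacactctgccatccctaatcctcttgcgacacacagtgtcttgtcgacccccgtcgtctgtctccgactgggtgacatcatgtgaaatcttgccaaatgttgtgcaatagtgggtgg
atf-7, chrIII:4494649-4494769, minus strand: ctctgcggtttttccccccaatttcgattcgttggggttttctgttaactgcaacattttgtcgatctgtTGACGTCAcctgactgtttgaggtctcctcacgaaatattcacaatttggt
The capitals in jun-1 and atfs-1 are the GA repeat GAGAGA or its complement, those in cebp-1 are TGACTCA, the site bound by Jun and Fos dimers (AP-1), and those in atf-7 are TGACGTCA, the cyclic AMP response element (CRE) bound by CREB and ATF proteins. The TGACTCA at cebp-1 began 8 bases before the summit (-8), and the TGACGTCA at atf-7 began 10 bases after it. At zip-2 none of the searched motifs lay in the printed window.

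Of the 9 genes, 4 had a summit in a promoter window in the authors' IDR list. The 4 were atfs-1, jun-1, cebp-1 and zip-2. The irreproducible discovery rate (IDR) sets a threshold by how alike peaks are ordered in separate replicates. A place in the list did not mean a similar rank in both replicates. The replicate summits nearest to that of jun-1 ranked 176 and 5405. A promoter window ran from 1000 bp upstream to 500 bp downstream of any annotated 5′ end. The list held 590 peaks, which were checked to be the 590 strongest of the pooled list of 30000 entries by the authors' signal value, their enrichment of ChIP over control. Of all protein coding genes, 2.5% had an IDR summit in a window, and 3.58% of those with 2 or more 5′ ends. The windows of the 9 genes were longer than usual, with a median of 3785 bp against 1501 bp over all protein coding genes. The single replicates differed for these genes. In replicate 1, 7 of the 9 had a summit among the 590 strongest, which was the case for 2.29% of protein coding genes. In replicate 2 none of the 9 did, beside 2.31% of protein coding genes. Of the 457 protein coding genes in the strongest of replicate 1, 56.5% were also in the strongest of replicate 2, and 1.29% of all protein coding genes were in both. The 7 genes of replicate 1 were jun-1, cebp-1, atf-7, atfs-1, xbp-1, skn-1 and zip-2.

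**Figure D1:**
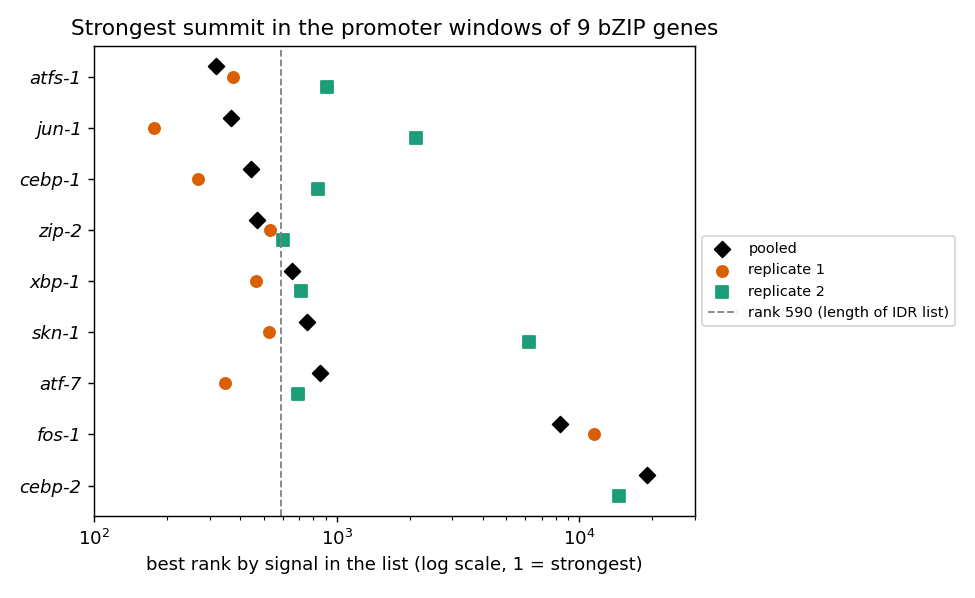
Best rank by signal of any summit in the promoter windows of each gene (log scale, 1 is the strongest of 30000) in the pooled list and in each replicate; the dashed line is at rank 590, the length of the IDR list. In replicate 1, 7 genes lie on the strong side of the line, and in replicate 2 the nearest is zip-2 at rank 600; fos-1 had no summit in replicate 2 and cebp-2 none in replicate 1.

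Some summit of the relaxed lists was present in a window in both replicates for 7 of the 9 genes. In each of the 2 lists alone 45.8% of protein coding genes had one, and the share with one in both was not computed. The count does not mean that the same place had a summit in both. The best summits were not always at the same place in both. They lay 2 bp apart at xbp-1, 44 at zip-2, 105 at atfs-1, 116 at cebp-1 and 146 at skn-1. At jun-1 they lay 2744 bp apart and at atf-7 3611 bp. Among the first 1180 entries, the pooled list held 7 of the genes, beside 4.46% of protein coding genes. Replicate 1 again held 7 and replicate 2 held 5, and the share of protein coding genes was not computed for these. The list of replicate 2 alone contained mitochondrial entries, 24 in all and 21 of them among its 590 strongest. With ranks over nuclear chromosomes only, a setting chosen after seeing the data, zip-2 stood at rank 579 in replicate 2 and was the single member among the 590 strongest there. The 590th signal was 16.5 in replicate 1 and 15.9 in replicate 2, on the scale of each list.

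Among the factors of stress responses, atfs-1 had the strongest pooled promoter summit of the 9 genes. atfs-1 (WBGene00013878, V, 14193663 to 14197700, plus strand) has 5 annotated 5′ ends in 3 places. Its IDR peak ran from 14193411 to 14193754, with a pooled signal of 37.4 and rank 317. The summit was intergenic and lay 80 bp upstream of the first 5′ end, that of isoform b. It also lay within the windows of the next 3 ends, the farthest of them 863 bp away, and in the window of no other gene. In replicate 1 the summit lay 37 bp downstream of the pooled one, with a signal of 19.3 and rank 372. In replicate 2 it lay 68 bp upstream of the pooled one, with a signal of 13.5 and rank 913. The single-replicate summits were thus 105 bp apart, on either side of the pooled summit. A second place, inside an intron and 889 bp upstream of the last 5′ end (isoform d), had a pooled rank of 1102 and a signal of 22.3. There replicate 2 had a summit 3 bp away at rank 1117, and replicate 1 listed no other summit in the windows of atfs-1.

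xbp-1 (WBGene00006959, III, 4193809 to 4195358, plus strand) stood just outside the IDR list, with a pooled signal of 27.7 and rank 652. The lowest signal in the IDR list was 28.9, and the member just inside was zip-2 at 31.8. The xbp-1 summit lay in the 5′ UTR, 13 and 25 bp downstream of the 2 annotated 5′ ends. Its place was the most alike between replicates, with summits 2 bp apart, a signal of 17.9 and rank 463 in replicate 1, and a signal of 14.7 and rank 715 in replicate 2. An IDR peak also lay past the 3′ end of the gene, from 4195351 to 4195694 with rank 321, with its summit 1714 bp from the first 5′ end. It was in no promoter window and was 1762 bp upstream of asd-1, a splicing factor gene.

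skn-1 (WBGene00004804, IV, 5651039 to 5660384, minus strand) has 4 annotated 5′ ends, 1 for each of isoforms a to d. Its best pooled summit, with a signal of 26.1 and rank 756, was not at the first of them. It lay 6984 bp into the gene in skn-1 coding sequence, 171 bp upstream of the 5′ end of isoform b and 760 bp upstream of that of isoform d. The window of clec-178, a C-type lectin gene on the other strand, also held it, 549 bp upstream of its 5′ end. In replicate 1 the summit lay 4 bp away, with a signal of 17.1 and rank 524. In replicate 2 the nearest summit was 150 bp from the pooled one, with a signal of 6.97 and rank 6210. The replicates therefore differed at skn-1 by more than at the 2 other stress factors. At the first 5′ end, of isoform a, the best pooled rank was 9263. A further pooled summit, with a signal of 22 and rank 1141, lay 5315 bp past the first 5′ end and outside all windows of skn-1.

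**Figure D2:**
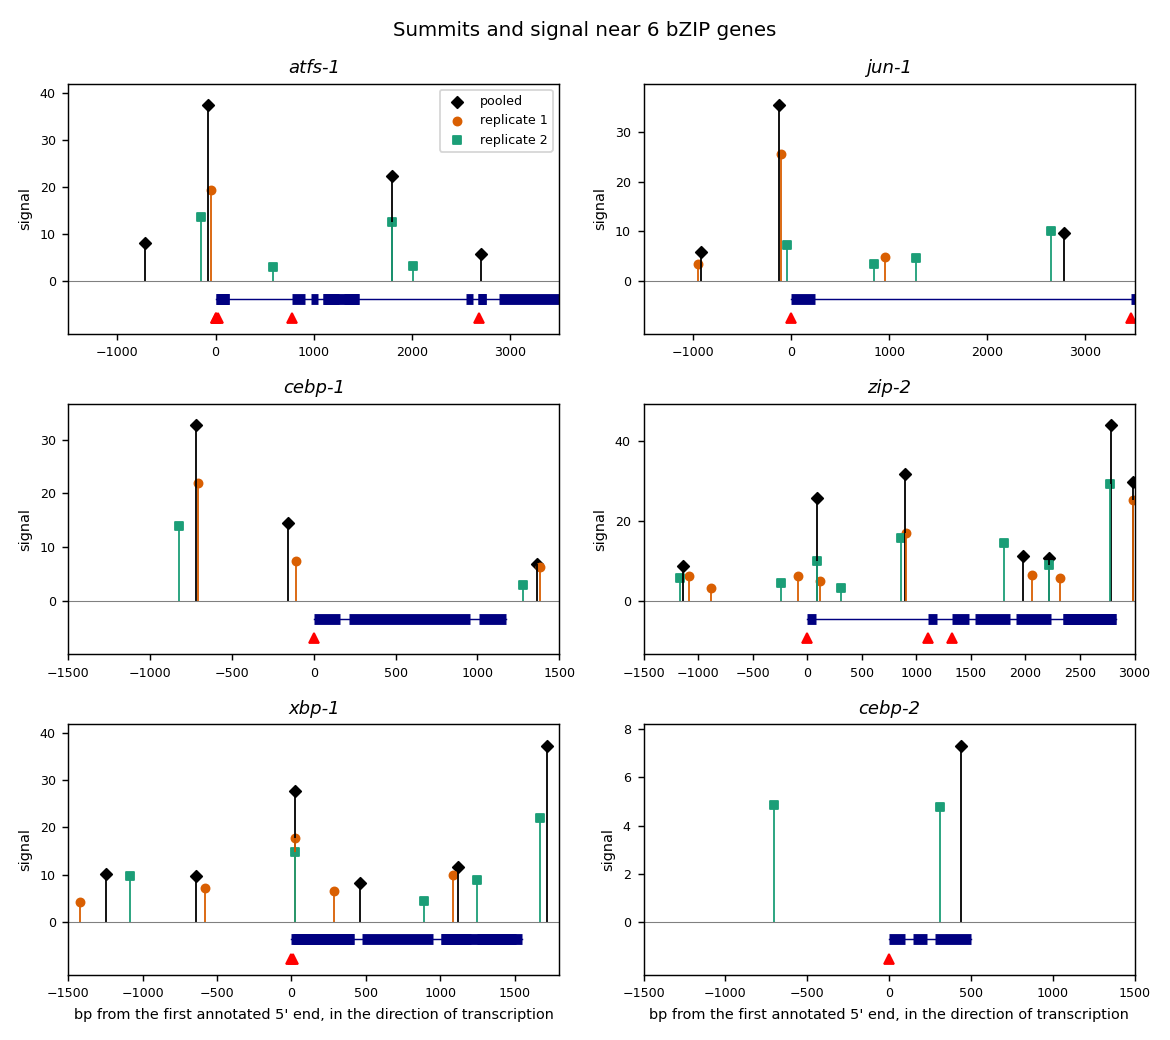
Summits (stems) near 6 of the genes, by distance in bp from the first annotated 5′ end and by the authors' signal value, whose scale is that of each list. Blue boxes are exons and red triangles annotated 5′ ends; within the promoter windows the strongest summits of atfs-1, jun-1 and cebp-1 lie upstream of the first 5′ end, that of zip-2 in an intron and that of xbp-1 at the 5′ end.

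The genes of the AP-1 pair were far apart. jun-1 (WBGene00012005, II, 9113157 to 9132231, plus strand) has 9 annotated 5′ ends spread over its 19075 bp. Its IDR peak, from 9112868 to 9113211, had its summit 117 bp upstream of the first end, that of isoform a, with a pooled signal of 35.4 and rank 365. The same summit was in the windows of the piRNA gene 21ur-15099 and the noncoding RNA gene T24H10.11, and of no other protein coding gene. In replicate 1 the summit was 19 bp away, with a signal of 25.5 and rank 176, the best rank of a promoter summit of the 9 genes in any list. In replicate 2 the nearest summit was 82 bp away, with a signal of 7.33 and rank 5405. Such a gap was rare among the IDR peaks that were matched in replicate 2. Of the 590 IDR peaks, 545 had a summit of replicate 2 within 100 bp. Of these 545, 2.02% had a rank beyond 5000 there, and their median rank was 350. The remaining IDR peaks had no summit that near in replicate 2 and are not part of this share. The best summit of jun-1 in replicate 2 was another one, 814 bp upstream of the 5′ end of isoform b, with rank 2113. The remaining 10 pooled summits in the windows of jun-1 ranked from 3446 to 29519. All 11 together came to 0.881 summits per kb of its windows and those of the 9 genes to 0.884, beside 0.353 per kb over the windows of all protein coding genes.

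fos-1 (WBGene00001345, V, 6003601 to 6016087, plus strand), known for its part in the invasion of the anchor cell, had 6 annotated 5′ ends and 1 pooled summit in all their windows. This summit lay in coding sequence, 159 bp downstream of the 5′ end of isoform b, with a signal of 10.6 and rank 8367. In replicate 1 a summit lay 12 bp from it at rank 11980, and the best of the 5 summits in that replicate ranked 11493. In replicate 2 fos-1 had no summit in a window. The strongest pooled summit within the gene, with a signal of 21.4 and rank 1207, lay 12270 bp past the first 5′ end, near the 3′ end of the gene and outside all windows of fos-1. There the replicates had ranks 1891 and 781. A stronger pooled summit, with a signal of 27.1 and rank 679, lay beyond the 3′ end of the gene, 14195 bp past the first 5′ end.

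**Figure D3:**
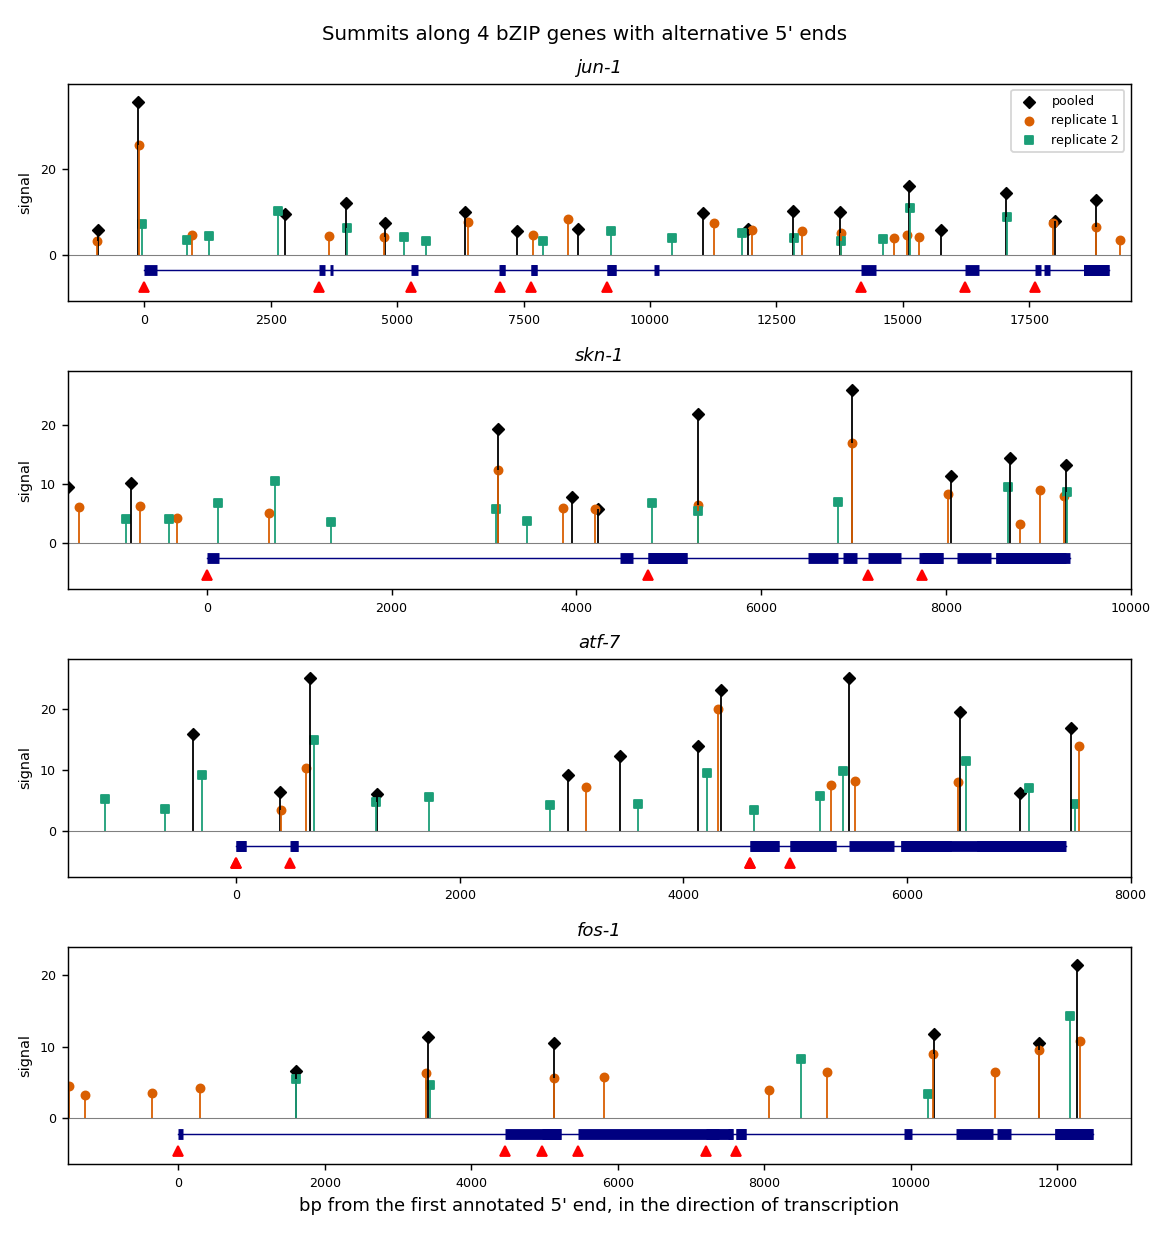
Summits (stems) along jun-1, skn-1, atf-7 and fos-1, by distance in bp from the first annotated 5′ end and by the authors' signal value, whose scale is that of each list. Blue boxes are exons and red triangles annotated 5′ ends; jun-1 has 1 tall summit at its first end in replicate 1, while the tallest pooled summits drawn for skn-1 and atf-7 lie inside the gene and that drawn for fos-1 near its 3′ end (a stronger one beyond the end of fos-1, at 14195 bp, is outside the plotted range).

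The C/EBP genes also ranked far apart. cebp-1 (WBGene00016997, X, 1452695 to 1453868, minus strand) has 1 annotated 5′ end. Its IDR peak, from 1454413 to 1454756, had a pooled signal of 32.7 and rank 445, and its summit lay 717 bp upstream. That was farther than usual, since the median over the 370 IDR summits in protein coding windows was 215.5 bp from the nearest such end. The summit was intergenic and in the window of no other gene. Replicate 1 had its summit 10 bp away, with a signal of 22 and rank 267. In replicate 2 the nearest summit was 106 bp farther upstream, beyond the 100 bp used as a match, with a signal of 14 and rank 834. A second pooled summit lay nearer to the gene, 155 bp upstream of its 5′ end, with a signal of 14.5 and rank 3417. In replicate 1 this place ranked 5656 and in replicate 2 it had no summit in the window.

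cebp-2 (WBGene00016754, I, 6253082 to 6253584, plus strand) encodes the other C/EBP protein and has 1 annotated 5′ end. Its only pooled summit lay in the 3′ UTR, 442 bp downstream of the 5′ end of this short gene, with a signal of 7.32 and rank 19075. Replicate 1 had no summit in its window, and replicate 2 had 2, at ranks 14541 and 15002. The pooled summit was also in the window of the neighbouring gene lpd-2, 177 bp upstream of its 5′ end. Its signal was below the median of the pooled list, 8.27.

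Of the factors of the pathogen response, zip-2 ranked most alike in the replicates among the 4 genes with an IDR summit. zip-2 (WBGene00019327, III, 832982 to 835814, plus strand) has 3 annotated 5′ ends. Its IDR peak, from 833702 to 834045, had a pooled signal of 31.8 and rank 470. The summit lay in an intron, 214 bp upstream of the second 5′ end and 431 bp upstream of the last, and was also in the window of the noncoding RNA gene K02F3.15. It lay 892 bp downstream of the first 5′ end and outside its window. The signal was 17 with rank 529 in replicate 1 and 15.8 with rank 600 in replicate 2, at summits 44 bp apart. A weaker pooled summit lay 88 bp downstream of the first 5′ end, with a signal of 25.8 and rank 781. It was also in the window of ceeh-1, an epoxide hydrolase gene on the other strand, 793 bp upstream of its 5′ end. At this place replicate 2 had rank 2121, and the 2 summits of replicate 1 nearest to it ranked 15694 and 9594. A pair of IDR summits lay near the 3′ end of zip-2, outside all promoter windows. The stronger, from 835591 to 835934 with rank 220, was in the 3′ UTR of zip-2 and of the overlapping gene dos-3. The other, from 835791 to 836134 with rank 550, was in coding sequence of dos-3.

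atf-7 (WBGene00000223, III, 4491627 to 4499045, minus strand), a target of the p38 kinase PMK-1, had 2 places of similar pooled rank. By the nearest summit in each replicate, the 2 places were ordered in opposite ways. The first place was intronic, 172 bp downstream of a 5′ end of isoform b, with a pooled signal of 24.9 and rank 850. It ranked 2297 in replicate 1, with a signal of 10.2, and 693 in replicate 2, with a signal of 14.8. The second, also intronic, lay 259 bp upstream of the 5′ end of isoform c, with a pooled signal of 23.1 and rank 1026, and holds the TGACGTCA printed above. This second place ranked 346 in replicate 1, with a signal of 19.9. In replicate 2 the nearest summit was 126 bp away, beyond the 100 bp used as a match, with a signal of 9.41 and rank 2605. That summit was nearer to another pooled summit of atf-7, 77 bp away, with a signal of 13.9 and rank 3860. A pooled summit with a signal of 25.1 and rank 841 lay 5483 bp past the first 5′ end, outside all windows of atf-7. Whether the replicates differ in the use of these places cannot be told from 1 value in each.

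Every one of the 9 genes had a summit in the pooled relaxed list, as did 45.5% of all protein coding genes. In each single relaxed list 8 of the 9 did, beside 45.8% of protein coding genes. A relaxed summit was thus common. By best pooled rank, 1.46% of protein coding genes stood at or above atfs-1, 1.6% at or above jun-1, 1.92% at or above cebp-1 and 2.05% at or above zip-2. The shares were 2.73% for xbp-1, 3.09% for skn-1 and 3.41% for atf-7. They were 19.1% for fos-1 and 33.7% for cebp-2. The neighbours in this order from atfs-1 to atf-7 were compared in their best ranks. In each pair but that of zip-2 and xbp-1, the genes differed in pooled rank by less than either differed between replicates. For zip-2 and xbp-1 the pooled ranks differed by more than those of zip-2 did between replicates, and by less than those of xbp-1 did. With fos-1 and cebp-2 no such comparison could be made, since each lacked a rank in 1 replicate.

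The protein coding genes whose IDR summits came next to those of the 4 members in pooled rank, used here as the measure of likeness over the 590 peaks, were as follows. Next to jun-1 stood gpa-1 (rank 362) and egl-30 with C53H9.4 (rank 366), and both gpa-1 and egl-30 encode G protein alpha subunits. Next to atfs-1 stood cpn-3, a calponin gene (rank 315), and myrf-1, a membrane-bound transcription factor gene (rank 320). Next to cebp-1 stood polh-1 with the ribosomal protein gene rps-22 (rank 444) and aex-5, a proprotein convertase gene (rank 446). Next to zip-2 stood Y18D10A.4 (rank 469) and gei-4 (rank 472).

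The sequence at the summits was searched for features that the choice of genes did not use. GC content within 100 bp of the summit was 56.2% at cebp-1, 54.2% at zip-2 and 48.8% at atfs-1. These values were above those of 99.1%, 98.4% and 94.1% of the 11296 pooled summits in protein coding windows. At jun-1 it was 35.8%, the median of those summits, and the median over IDR summits in such windows was 42%. At the weaker summits searched it was 45.8% at xbp-1, 45.3% at skn-1 and 41.8% at the atf-7 summit of rank 1026. It was 33.8% at zip-2 and at the atf-7 summit of rank 850, and 23.4% at atfs-1, all below the pooled median. The GA repeat GAGAGA, searched on both strands and allowing overlaps, lay within 100 bp of 2 of the 4 IDR summits, those of jun-1 and atfs-1. It was held by 32.4% of IDR and 15.4% of pooled summits in protein coding windows. Among the 6 weaker summits, at ranks 652 to 1102, it lay at xbp-1 and skn-1. Within 100 bp the AP-1 site TGACTCA lay at cebp-1 alone among the 10 summits searched, and 2.97% of IDR and 2.03% of pooled summits held it. Within 200 bp it also lay at jun-1, and 4.32% of IDR and 4.01% of pooled summits held it. The CRE TGACGTCA lay at atf-7 and at xbp-1, where it began 98 bases before the summit (-98), and 1.35% of IDR and 1.24% of pooled summits held it. The GATA site TGATAA lay at atfs-1, at the weaker summit of zip-2 and at the inner summit of atf-7, and 10.8% of IDR and 19.7% of pooled summits held it. The nuclear receptor hexamer AGGTCA lay at none of the 10, and 5.14% of IDR and 5.14% of pooled summits held it. The C/EBP palindrome TTGCGCAA and the E-box CACGTG were also at none of the 10 within 100 bp. IDR summits held them in 2.16% and 4.05% of cases, and pooled summits in 0.39% and 3.78%. Each match is a description of letters in this window and not a bound site.

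Of the 20 other bZIP genes none had an IDR summit, beside 2.5% of all protein coding genes, so none among 20 is near that share. A pooled relaxed summit was found for 14 of the 20, beside 45.5% of all protein coding genes. The highest was crh-1, the worm CREB gene, with a best pooled rank of 1048 and a signal of 22.9 at a summit 361 bp upstream of a 5′ end. Its best rank was 500 in replicate 1, at another of its 5′ ends and 21 bp upstream of it, and 598 in replicate 2. It was the only one of the 20 among the 590 strongest of a replicate. After it came zip-4 with a best pooled rank of 1479, ces-2, a regulator of programmed cell death, with 2122, and atf-4 with 2386. The endoplasmic reticulum stress factor gene atf-6 ranked 8785. No pooled summit was found in the windows of zip-6, zip-8, zip-9, zip-12, atf-2 and atf-8.

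**Figure D4:**
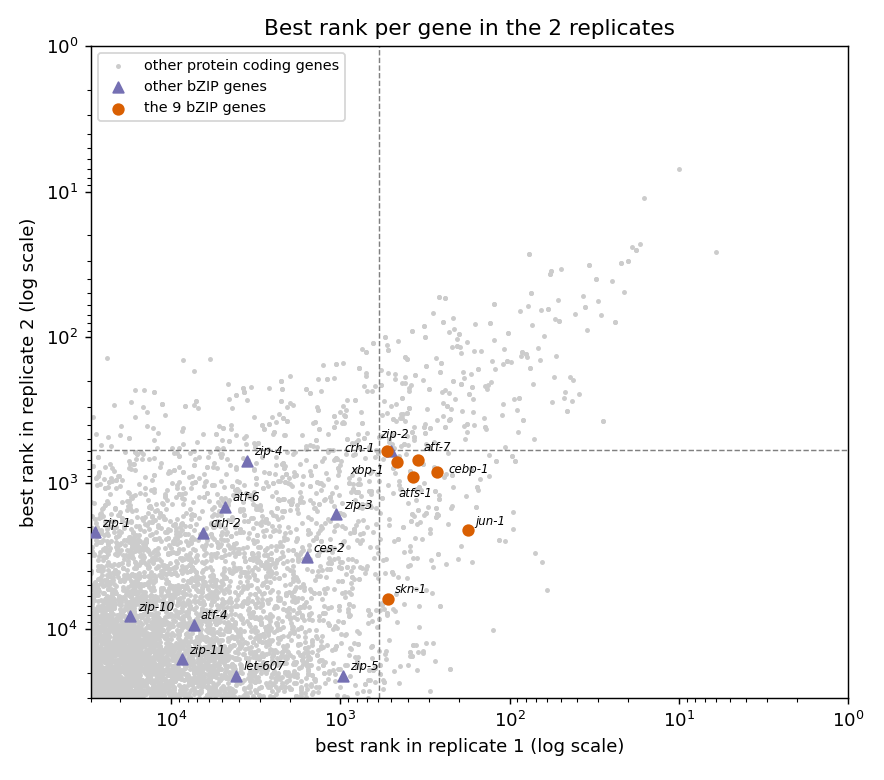
Best rank in replicate 1 against best rank in replicate 2 (log scales, strongest at the upper right) for genes with a summit in both, with the 9 bZIP genes in orange, other bZIP genes in violet and all other protein coding genes in grey. Dashed lines are at rank 590; 7 of the 9 genes lie to the right of the vertical line and below the horizontal one, with jun-1 at 176 and 2113 and skn-1 at 524 and 6210.

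Genes that act with these factors were looked up in 6 lists, also chosen with earlier results known, beside the same 2.5% of all protein coding genes. Of 16 genes of the endoplasmic reticulum unfolded protein response, 4 had an IDR summit. These were cdc-48.1, which encodes a AAA ATPase, the protein disulfide isomerase genes pdi-6 and pdi-3, and hsp-3, which encodes a chaperone of the BiP kind. Their pooled ranks were 14, 144, 176 and 249, and each was also among the 590 strongest of both replicates. Of 13 genes of the mitochondrial response, 2 had one, namely hsp-60 and jmjd-1.2, a histone demethylase gene, at ranks 111 and 134. Of 10 regulators of SKN-1, wdr-23, which directs SKN-1 to degradation, had 2 IDR summits, at ranks 73 and 132. The stronger lay 209 bp downstream of a 5′ end and the other 85 bp upstream of one. Of 12 genes of the p38 immune pathway, 1 had a summit, nipi-3, a Tribbles kinase gene known to restrain CEBP-1, at rank 154 and 299 bp upstream. Of 10 genes of the JNK and KGB-1 kinases, 1 had a summit, kgb-1, which encodes a kinase of the JNK family, at rank 513 and 522 bp upstream. None of the 8 genes of the DLK-1 pathway, which acts upstream of CEBP-1 in axons, had an IDR summit, and mak-2 came nearest at rank 702. In these pathways cdc-48.1, hsp-3, pdi-3, pdi-6, hsp-60, jmjd-1.2, wdr-23 and nipi-3 thus ranked above the promoter summits of all 9 bZIP genes in the pooled list. The IDR summits of cdc-48.1, pdi-3, hsp-60, jmjd-1.2 and kgb-1 also lay in the windows of other genes. They cannot be assigned to the pathway genes alone.

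No interval is given for a signal, since read depth and controls were not analysed here, and ranks in 2 replicates give the only measure of spread. With 1 group of 2 libraries no test between conditions could be made.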

How the data were processed

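ChIP-seq peaks of 2 biological replicates of 1 group were used on the assembly ce11. Per the labels and the deposited inventory texts, the authors made relaxed lists, of peaks together with background, for each replicate and for the pool of both, against a control, and thresholded these by IDR. Aligner, caller, versions and IDR cutoff are, for these files, not given in the sources used here. In each list the deposited signal value of a peak, the authors' enrichment over control, ranked peaks within a list only. The deposited −log10 of the q-value had 1 value, its maximum, in the whole IDR list, so it gave no ranks. Lists on ce10 were not used.

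Genes, transcripts and 5′ ends came from Ensembl release 115 (WBcel235, the sequence of ce11; all nuclear peaks ended inside its chromosomes), and sequence from RefSeq. Coordinates are 1-based. Summits were assigned to every window that held them, negative distances being upstream, and a match between lists was a summit within 100 bp. Named genes are the 9 members, genes sharing their summits, other bZIP genes in the strongest lists, listed pathway genes with an IDR summit and neighbours in pooled rank; other bZIP genes below these, mak-2, and the genes near summits outside windows were named after their values were seen. Members and lists were chosen with earlier results of these data known. Python 3.11.15 with pandas 2.3.3 was used, and the window search was tested on simulated data. No p-value was computed.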

Additional observations from a re-analysis of the deposited data

How the results depend on the processing

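The count with an IDR summit was 4. It was 0 among the 295 strongest IDR peaks and 7 among the 1180 strongest pooled peaks, and ranged from 0 (without replicate 1, using the 590 strongest of replicate 2) to 7 (without replicate 2). It stayed between 3 and 4 with windows of 500 bp on either side or 2000 bp upstream, with the outermost 5′ end only and with the nearest protein coding 5′ end only. With 500 bp on either side the cebp-1 summit was lost and its best pooled rank was 3417. With the outermost end only, the zip-2 IDR summit was lost and the best pooled rank of skn-1 was 9263. The count of other bZIP genes with an IDR summit was 1 among the 1180 strongest pooled peaks and 0 to 1 with a single replicate.

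The count among the strongest of replicate 1 was 4 with the outermost 5′ end only and 2 among its first 295 peaks, against 7. That of replicate 2 was 5 among its first 1180 peaks and 1 with nuclear chromosomes only, against 0. Within 50 bp, 1 of the 4 IDR summits was matched in replicate 2, against 3 within 100 bp, where that of cebp-1 was not matched. Within 50 bp of the summit, 0 of the 4 held the GATA site. The cause of these moves was not tested beyond the fewer or additional peaks, ends and bases that each setting brings. Pooled relaxed counts stayed at 8 or 9. No paired analysis was possible because there is 1 group. Depth is unknown, which limits what the ranks of weak summits show.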
